A study of Mus musculus with 8 samples.

Results

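A set of 10 long noncoding RNAs is described here in αTC1-6 cells: Malat1, Neat1, Miat, Pvt1, Gas5, Snhg1, Snhg8, Snhg11, Snhg12 and Epb41l4aos. They were chosen by name, as genes known for abundant nuclear RNA or for carrying small nucleolar RNAs in their introns, and their 10 symbols were matched to 10 of the 75078 Ensembl gene IDs in the deposited table. αTC1-6 is a mouse cell line of glucagon-producing pancreatic alpha cells. The 2 groups of 4 libraries each came from cells that received either an empty plasmid (libraries 31, 32, 33 and 34) or a plasmid overexpressing Yy1, a zinc finger transcription factor (libraries 45, 46, 47 and 48). All cells were transfected 24 h after seeding, in medium labelled 11 mM DMEM, and all were thus exposed to a plasmid. The labels do not say that the samples came from separate cultures, so p-values reflect no more than the variation among these 8 samples, and that variation may be technical.

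Long noncoding RNAs do not encode a known protein, and the members other than Pvt1 fall into 2 kinds by role. Malat1 and Neat1 stay in the nucleus, where Malat1 is found in nuclear speckles, which hold splicing factors, and Neat1 is the scaffold of paraspeckles. Miat is also nuclear, and Pvt1 is transcribed beside the Myc gene. The small nucleolar RNA (snoRNA) hosts are spliced transcripts whose introns are trimmed into snoRNAs, which guide chemical modification of ribosomal RNA. The spliced host RNA itself is often removed by nonsense-mediated decay, and several hosts start with a pyrimidine tract like that of ribosomal protein genes.

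Totals ran from 20679565 counts in empty plasmid 33 to 33347196 in Yy1 plasmid 47. Levels are given as CPM (counts scaled to the library total) after scaling of library sizes by TMM. The transcript of Yy1 was at 175 ± 5.33 CPM in the empty plasmid group and at 5233 ± 464 CPM in the other (mean ± SD, n = 4). Of the 14 alpha cell markers 13 were tested, with Gc at 0 CPM in all libraries, and Gcg, which encodes proglucagon, stood at 21228 ± 547 and 21291 ± 372 CPM (mean ± SD, n = 4). The 8 beta cell markers summed to between 53.0 and 57.8 CPM with the empty plasmid and between 49.0 and 58.9 CPM with the Yy1 plasmid. Nearly all of this was Nkx6-1 (54.8 ± 2.10 and 51.0 ± 4.41 CPM, mean ± SD, n = 4), while the insulin genes Ins1 and Ins2 and also Ucn3 had 0 CPM in all libraries. The 12 acinar and duct markers summed to between 22.3 and 25.6 CPM and between 24.7 and 28.6 CPM. All 4 of them that were tested had positive log2 fold changes and 0 were called. The groups did not overlap for Sox9 and Spp1, beside 3.95% of all tested genes. The 4 delta and PP cell markers summed to less than 1 CPM in each library. The 13 stromal, endothelial and immune markers summed to between 4.26 and 6.51 CPM and between 5.12 and 6.81 CPM. Of these, 3 were tested and 0 called. The groups also did not overlap for Cd68, which was lower with the Yy1 plasmid (1.14 ± 0.125 and 0.812 ± 0.103 CPM, mean ± SD, n = 4). The part of these markers in the results below was not tested.

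No member was called different between the plasmids. Of the 10 members, 9 passed the filter on low counts, and edgeR's quasi-likelihood test called 0 of these 9 at an adjusted p under 0.05 over all 15916 tested genes. The same test called 0.515% of all tested genes, 0.496% higher and 0.0188% lower with the Yy1 plasmid. At an unadjusted p under 0.05 it also found 0 of the 9, against 862 of all tested genes, or 5.42%, and DESeq2 and limma-voom called 0 members. The libraries of the 2 groups overlapped for all 9, whereas they did not overlap for 3.95% of all tested genes. Log2 fold changes (log2FC, Yy1 plasmid against empty plasmid) ran from -0.17 for Gas5 to 0.01 for Snhg11, with 6 negative and 3 positive. Their median was -0.05, and the median of all tested genes was -0.00249, with 8186 negative. The 95% intervals of the 9 fold changes lay between 0.738-fold and 1.21-fold, which leaves room for changes of that size that these libraries could not show.

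**Figure D1:**
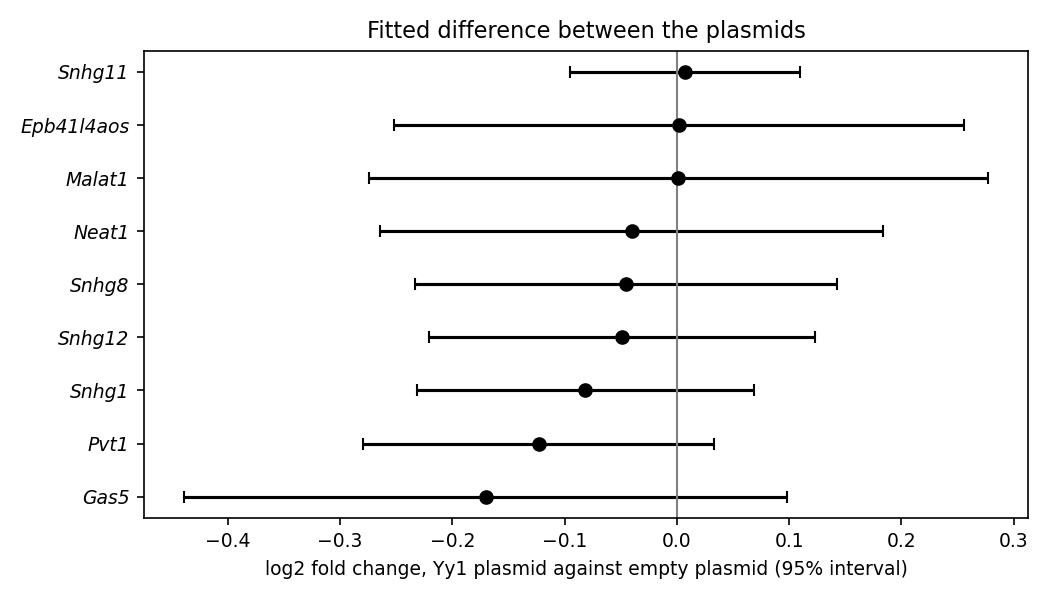
Points give the fitted log2FC of each tested member, Yy1 plasmid against empty plasmid, and bars its 95% interval from edgeR (n = 4 per group). All 9 intervals include 0, and the widest departures from it are those of Gas5 (-0.17) and Pvt1 (-0.12).

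The members span a wide range of levels, and not all of them were abundant. By mean CPM, Malat1 ranked 88 and Neat1 580 among the 15916 tested genes. Snhg1 ranked 2315, Gas5 2505 and Snhg11 3394, while Snhg8 ranked 8588, Snhg12 8604, Pvt1 8976 and Epb41l4aos 10726. Miat was at the limit of detection. The 10 members summed to 1374 ± 136 CPM in the empty plasmid group and to 1349 ± 87.6 CPM in the Yy1 plasmid group (mean ± SD, n = 4), and Malat1 alone made up 56.8 ± 3.29% and 58.1 ± 2.93% of these sums. Together they held between 0.125% and 0.152% of the counts of a library.

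**Figure D2:**
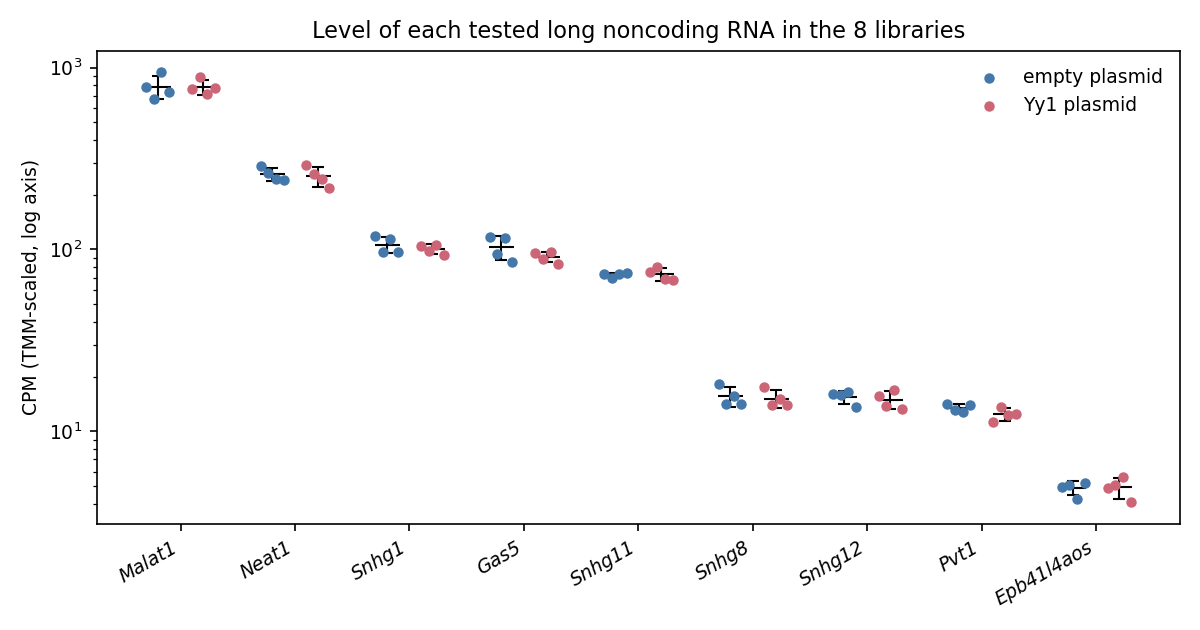
Points give the level of each tested member in each of the 8 libraries, in CPM on a log axis, with the mean and SD of each group of 4 in black. Malat1, near 783 CPM, and Epb41l4aos, near 4.9 CPM, mark the ends of the range, and the 2 groups overlap for each gene shown. Miat, with 0 CPM in 3 libraries, is not drawn.

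Levels of different genes can be compared only per length. Per kilobase of the longest transcript in GENCODE mouse release 21, Malat1 had the highest median level over the 8 libraries, 110.1 CPM per kilobase, with a range from 96.8 to 135. Snhg1 (37.2 CPM per kilobase) and Gas5 (37.1) came next, and their ranges overlapped. Snhg8 followed at 18.8 CPM per kilobase of that transcript. Snhg11 (12.5), Neat1 (12.1), Epb41l4aos (11.7) and Snhg12 (10.2) formed a run in which each range overlapped that of the next gene in the order. Pvt1 was lower, at 3.90 CPM per kilobase, and Miat last, at 0.012. Several of these places depend on the transcript assumed, that of Neat1 among them, whose longest model has 20771 bases and its shortest 711. With the median transcript length of each gene Neat1 ranked 4, at 125 CPM per kilobase, behind Malat1 (1269), Snhg1 (169) and Gas5 (151). On that scale Snhg11 (55.0 CPM per kilobase) came before Snhg8 (27.7), and Snhg12 (17.2) before Epb41l4aos (13.7), both in the reverse of the order above. The estimated counts of the isoforms themselves were not analysed here.

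Malat1, the speckle RNA, had 24008, 17952, 19244 and 20539 counts in empty plasmid 31, 32, 33 and 34, and 24897, 26315, 23668 and 24686 in Yy1 plasmid 45, 46, 47 and 48. These were 779, 676, 943 and 735 CPM against 764, 886, 712 and 774 CPM. Empty plasmid 33 was the highest library and empty plasmid 32 the lowest, so the empty plasmid group spans the whole range of the other. The log2FC was 0.0015 with an SE of 0.116 (95% interval -0.27 to 0.28; edgeR adjusted p = 0.999). Its sign turned when single libraries were left out, from -0.06 without Yy1 plasmid 46 to 0.10 without empty plasmid 33. Malat1 ends in a tract of A residues encoded in the genome in place of a usual poly(A) tail. How well poly(A) selection captured that end was not tested.

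Neat1, the paraspeckle scaffold, stood at 289, 263, 245 and 242 CPM in empty plasmid 31, 32, 33 and 34 and at 291, 259, 243 and 217 CPM in Yy1 plasmid 45, 46, 47 and 48. Yy1 plasmid 45 and empty plasmid 31 were its highest libraries, and Yy1 plasmid 48 its lowest. The log2FC was -0.04 with an SE of 0.0963 (95% interval -0.26 to 0.18; edgeR adjusted p = 0.997). Over the 8 libraries Neat1 and Malat1 did not vary together (Pearson r = -0.06, Spearman rho = 0.05). The long Neat1 isoform, which builds paraspeckles, lacks a usual poly(A) tail, and its share of these counts was not analysed here.

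Miat, best known from neurons and retina, had 4, 6, 0 and 0 counts in empty plasmid 31, 32, 33 and 34 and 5, 12, 3 and 0 in Yy1 plasmid 45, 46, 47 and 48. Both groups hold a library at 0. A count of 0 allows up to 3 counts, which is 0.147 CPM in empty plasmid 33, the smallest library, and 0.0941 CPM in Yy1 plasmid 48. The gene did not pass the filter, and no fold is given.

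Pvt1, the transcript beside Myc, stood at 14.1, 13.0, 12.8 and 13.96 CPM in empty plasmid 31, 32, 33 and 34 and at 11.2, 13.6, 12.4 and 12.5 CPM in Yy1 plasmid 45, 46, 47 and 48. It was the member with the smallest p, with 3 of 4 Yy1 plasmid libraries below all empty plasmid libraries and Yy1 plasmid 46 inside their range. The log2FC was -0.12 with an SE of 0.0754 (95% interval -0.28 to 0.03; edgeR adjusted p = 0.953), and the two-sided exact permutation test of log2(CPM + 1) gave p = 0.143, where 4 against 4 libraries allow 0.0286 at the least. Myc, which encodes a growth-promoting transcription factor, stood at 1.75 ± 0.321 and 2.31 ± 0.567 CPM (mean ± SD, n = 4), with a log2FC of 0.40 with an SE of 0.203 (edgeR adjusted p = 0.917).

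Among the snoRNA hosts, Gas5 had the largest fitted difference. It stood at 116.5, 94.3, 115.3 and 85.0 CPM in empty plasmid 31, 32, 33 and 34 and at 95.3, 88.9, 97.1 and 83.7 CPM in Yy1 plasmid 45, 46, 47 and 48. Empty plasmid 31 and 33 lay above all other libraries, and empty plasmid 32 and 34 lay inside the range of the Yy1 plasmid group. The log2FC was -0.17 with an SE of 0.114 (95% interval -0.44 to 0.10; edgeR adjusted p = 0.976), and it went from -0.10 without empty plasmid 31 to -0.25 without empty plasmid 34. Gas5 overlaps Zbtb37, a coding gene on the opposite strand with 959 counts per library on average. Whether the counting used strand is not given in the sources used here, so the division of reads between this pair is uncertain. Zbtb37 had a log2FC of 0.06 (SE 0.0971).

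Snhg1 stood at 117.9, 96.6, 114.1 and 96.8 CPM in empty plasmid 31, 32, 33 and 34 and at 104.8, 98.2, 105.9 and 92.9 CPM in Yy1 plasmid 45, 46, 47 and 48. As for Gas5, empty plasmid 31 and 33 were the highest libraries and Yy1 plasmid 48 the lowest. Its log2FC was -0.08 with an SE of 0.0689 (edgeR adjusted p = 0.985). Slc3a2, a subunit of amino acid transporters and a coding neighbour of Snhg1 beside Wdr74, had a log2FC of -0.01 (SE 0.0382).

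Snhg8 stood at 18.2, 14.2, 15.7 and 14.1 CPM in empty plasmid 31, 32, 33 and 34 and at 17.5, 13.9, 15.01 and 13.9 CPM in Yy1 plasmid 45, 46, 47 and 48. Snhg12 stood at 15.97, 15.8, 16.5 and 13.6 CPM and at 15.7, 13.8, 17.0 and 13.3 CPM in the same order. In both genes the groups cover nearly the same range. The log2FCs were -0.05 (SE 0.0901) for Snhg8 and -0.05 (SE 0.0829) for Snhg12, both with an edgeR adjusted p of 0.997.

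Snhg11, a host best known from neurons, was the steadiest of the well-expressed members. It stood at 73.0, 69.7, 73.1 and 74.4 CPM in empty plasmid 31, 32, 33 and 34 and at 75.5, 79.7, 68.9 and 67.7 CPM in Yy1 plasmid 45, 46, 47 and 48, so the empty plasmid libraries lie inside the range of the others. The log2FC was 0.01 with an SE of 0.0496 (95% interval -0.10 to 0.11; edgeR adjusted p = 0.997), the narrowest interval among the members. Epb41l4aos, the lowest of the tested members by CPM though not per kilobase, stood at 4.97, 5.08, 4.26 and 5.23 CPM and at 4.85, 5.08, 5.63 and 4.08 CPM in the same order. Its log2FC was 0.0019 with an SE of 0.122 (edgeR adjusted p = 0.999).

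The snoRNAs themselves were hardly counted. Release 21 places 27 genes of type snoRNA inside 6 of the members and on their strand, with 10 in Gas5, 8 in Snhg1, 5 in Snhg12, 2 in Snhg11, and 1 each in Snhg8 and Epb41l4aos. Of these, 25 have a row in the table, and 24 had 0 counts in all 8 libraries. The remaining one, in Snhg11, had 20 counts in total. Mature snoRNAs carry no poly(A) tail, and the libraries were made from poly(A) RNA. The part of this in the low snoRNA counts was not tested. The counts above are those of the host genes and not of their snoRNAs.

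Several hosts varied together between libraries of the same plasmid. Gas5, Snhg1, Snhg8 and Snhg12, which were set together after their values were seen, were each higher in empty plasmid 31 and 33 than in 34, and higher in Yy1 plasmid 45 and 47 than in 46 and 48. Over the 8 libraries Gas5 and Snhg1 had the highest correlation of log2 CPM among the members (r = 0.95, rho = 0.93, and r = 0.96 after the group means were removed). Gas5 had r = 0.73 (rho = 0.90) with Snhg8 and r = 0.77 (rho = 0.88) with Snhg12. With Snhg11 it had r = 0.04 and with Epb41l4aos r = -0.08, so not every host took part. Malat1 had r = 0.36 with Gas5. Neat1, although no host, had r = 0.76 (rho = 0.71) with Snhg8, near the r of Gas5 with Snhg8. After the group means were removed, r with Snhg8 was 0.751 for Neat1 and 0.755 for Gas5. These are descriptions over 8 libraries of unequal depth, in which all genes share the library, and they carry no p.

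**Figure D3:**
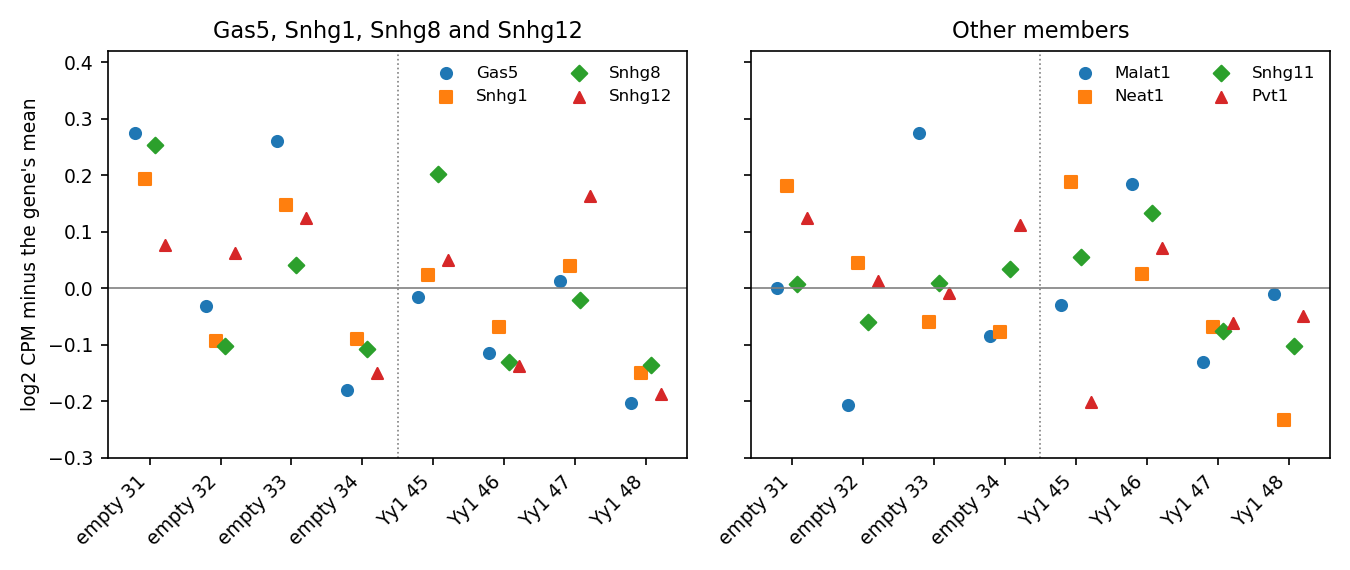
Points give the log2 CPM of 8 members in each library minus the mean of the gene over the 8 libraries, with a dotted line between the 2 groups. On the left Gas5, Snhg1, Snhg8 and Snhg12 are each higher in libraries 45 and 47 than in 46 and 48, and on the right, for Malat1, Neat1, Snhg11 and Pvt1, Malat1 is highest in library 33 and Neat1 in 45.

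For several members the libraries of one plasmid differed more than is usual for genes of a like level. The within-group SD of log2 CPM was 0.172 for Malat1, against a median of 0.0659 among the 97 tested genes within 0.5 of its average log2 CPM, of which 99.0% had a smaller SD. For Gas5 it was 0.173 against a median of 0.0592 among 2035 genes, of which 99.0% had a smaller SD, and for Neat1 0.150 against 0.0564 among 732 genes (98.5%). Snhg1 (95.7%), Snhg8 (92.5%), Snhg12 (84.8%) and Snhg11 (78.2%) also lay above the median at their level. Epb41l4aos (49.3%) and Pvt1 (32.1%) did not. The standard errors of the fold changes follow this spread: that of Malat1 was 0.116, against a median of 0.0437 at its level. A difference in Malat1 or Gas5 therefore had to be larger to be detectable than in most genes of the same abundance.

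**Figure D4:**
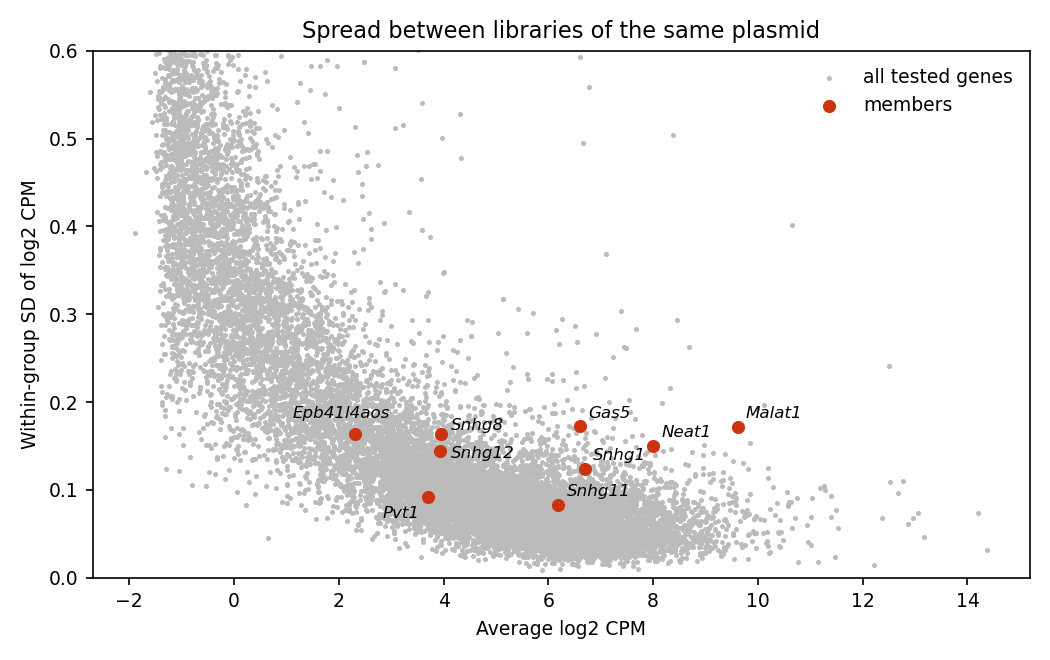
Each grey point is a tested gene, with its average log2 CPM on the x axis and the within-group SD of its log2 CPM (2 groups of 4) on the y axis, and red points are the members. Malat1, Neat1 and Gas5 lie near the upper edge of the cloud at their level, whereas Pvt1 and Epb41l4aos lie within it. The y axis ends at 0.6, which leaves out 559 genes.

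Promoter sequences from RefSeq (build GRCm38.p6) were taken for 7 of the 10 members, as 300 bases around each annotated start. Neat1 and Pvt1 had no entry there. Epb41l4aos was left out of the search, so nothing is said of its promoter. Shown are 60 bases before the start and 50 from it, for the hosts that varied together (Gas5 by the downstream of its 2 starts), for Snhg11 as a host that did not, and for Malat1 as the most abundant member. Capitals mark a C followed by at least 5 pyrimidines within 20 bases of the start, as in the terminal oligopyrimidine starts of translation genes, and the letters ATGGC or, on the other strand, GCCAT, the core of the known YY1 site.
Gas5 (chr1:161035106-161035215, plus strand): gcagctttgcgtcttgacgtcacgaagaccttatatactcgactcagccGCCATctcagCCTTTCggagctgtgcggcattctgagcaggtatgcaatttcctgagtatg
Snhg1 (chr19:8723427-8723536, plus strand): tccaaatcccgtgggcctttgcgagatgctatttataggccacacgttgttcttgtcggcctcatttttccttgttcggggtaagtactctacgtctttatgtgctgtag
Snhg8 (chr3:123508287-123508396, minus strand): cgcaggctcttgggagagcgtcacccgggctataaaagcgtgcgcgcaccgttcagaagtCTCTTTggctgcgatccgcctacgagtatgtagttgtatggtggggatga
Snhg12 (chr4:132308618-132308727, plus strand): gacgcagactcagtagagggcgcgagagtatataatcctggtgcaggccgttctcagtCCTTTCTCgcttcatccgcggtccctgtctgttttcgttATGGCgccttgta
Snhg11 (chr2:158375653-158375762, plus strand): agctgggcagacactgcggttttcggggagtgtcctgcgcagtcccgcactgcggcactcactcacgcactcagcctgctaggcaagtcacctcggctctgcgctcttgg
Malat1 (chr19:5802623-5802732, minus strand): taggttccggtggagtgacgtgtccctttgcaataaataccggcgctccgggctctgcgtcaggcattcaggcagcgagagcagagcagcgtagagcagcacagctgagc

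The pyrimidine run was found at the starts of Gas5 (CCTTTC), Snhg8 (CTCTTT) and Snhg12 (CCTTTCTC), and beyond those shown at that of Miat. The rule did not match Snhg1, Snhg11 or Malat1. Of 32851 RefSeq promoters of the same length, 29.4% held such a run. ATGGC was found on either strand within the 300 bases of Gas5, Snhg12, Snhg11 and Miat, and in 40.5% of all promoters. The longer ANATGGC, which contains it, was found in Gas5 alone among the 7, and in 15.1% of all promoters. The upstream start of Gas5 held neither the pyrimidine run nor ATGGC, so each match given for Gas5 is that of its downstream start. In Gas5 the match lies on the minus strand, 11 bases before the start, and the gene was not called in the comparison. A match is a description of letters and not of binding.

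Other snoRNA hosts gave 0 calls as well. Of 16 listed hosts 13 were matched by symbol, 12 were tested and 0 called. An unadjusted p under 0.05 was found for 2, and 8 had negative log2FCs. Their median log2FC was -0.14, beside -0.00249 over all tested genes. Zfas1 had the smallest p and stood at 19.1 ± 1.74 and 23.8 ± 3.27 CPM (means ± SD of 4 libraries; log2FC 0.32 with an SE of 0.0909; edgeR adjusted p = 0.285). Snhg6 (-0.19, SE 0.0788) and Snhg17 (-0.14, SE 0.0684) followed. Rian, an imprinted host that carries tandem snoRNAs, was the most abundant of them at 341 ± 15.9 and 354 ± 12.3 CPM. Of these 12 hosts, 9 had a within-group SD above the median at their level, and Snhg5 (r = 0.86) and Snhg15 (r = 0.82) varied most closely with Gas5. The median r of the 12 with Gas5 was 0.31, beside 0.0007 over all tested genes. It was negative for Snhg14 (r = -0.40), Snhg9 (-0.27), Snhg10 (-0.16) and Rian (-0.11), so not every one of these hosts varied with Gas5. Group means were not removed for these r.

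The proteins that bind snoRNAs gave 0 calls. Of the 8 core proteins of box C/D and H/ACA particles, 0 were called, with log2FCs from -0.09 for Nop56 to 0.10 for Nop10. Fibrillarin, encoded by Fbl, which methylates ribosomal RNA, stood at 147.7 ± 17.4 and 144.3 ± 9.28 CPM (mean ± SD, n = 4). Of 11 assembly factors 0 were called (-0.10 to 0.02). Of 14 factors of nonsense-mediated decay 0 were called (-0.15 to 0.06), and Upf2 had the smallest p (-0.10, SE 0.0504). Of 20 translation genes known for a terminal oligopyrimidine start 0 were called, with a median log2FC of -0.02.

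Proteins of the nuclear bodies likewise gave 0 calls. Of 18 paraspeckle proteins, Sfpq, an RNA-binding protein that joins Neat1, had the smallest p (log2FC -0.10 with an SE of 0.0459; edgeR adjusted p = 0.909), and the list had a median of -0.02. Of 23 speckle and SR proteins, Srsf11 had the smallest p (-0.13, SE 0.0511, edgeR adjusted p = 0.731), and 19 had negative values. Of 18 factors of RNA end processing and nuclear RNA turnover, Zfc3h1, part of a targeting complex of the nuclear exosome, had the smallest p (-0.10, SE 0.0459, edgeR adjusted p = 0.879).

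Further long noncoding RNAs were tested beside the members. Of 28 listed, 25 were matched by symbol, 17 were tested and 0 called. Of those tested, 13 had positive log2FCs, and the median was 0.04. Dleu2 had the smallest p and stood at 19.2 ± 1.12 and 22.5 ± 0.389 CPM (means ± SD of 4 libraries; log2FC 0.23 with an SE of 0.0607; edgeR adjusted p = 0.160). Trp53cor1, a noncoding target of p53 at mean levels of 1.36 and 2.16 CPM, had 0.66 with an SE of 0.200 (edgeR adjusted p = 0.303). The imprinted H19, at mean levels of 1.21 and 0.822 CPM, had -0.55 with an SE of 0.249 (edgeR adjusted p = 0.890). The libraries of the groups did not overlap for these 3 of the 17, and for Zfas1 of the 12 hosts, beside the 3.95% of all tested genes. They also did not overlap for Nop10 of the 8 core proteins and Upf2 of the 14 decay factors. Coding genes beside the members were not called either. Besides Myc, Zbtb37 and Slc3a2 above, the log2FCs were 0.03 for Frmd8, 0.06 for Ltbp3, 0.03 for Wdr74, 0.01 for Trnau1ap and -0.0023 for Ralgapb. Epb41l4a and Prss12 did not pass the filter.

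**Figure D5:**
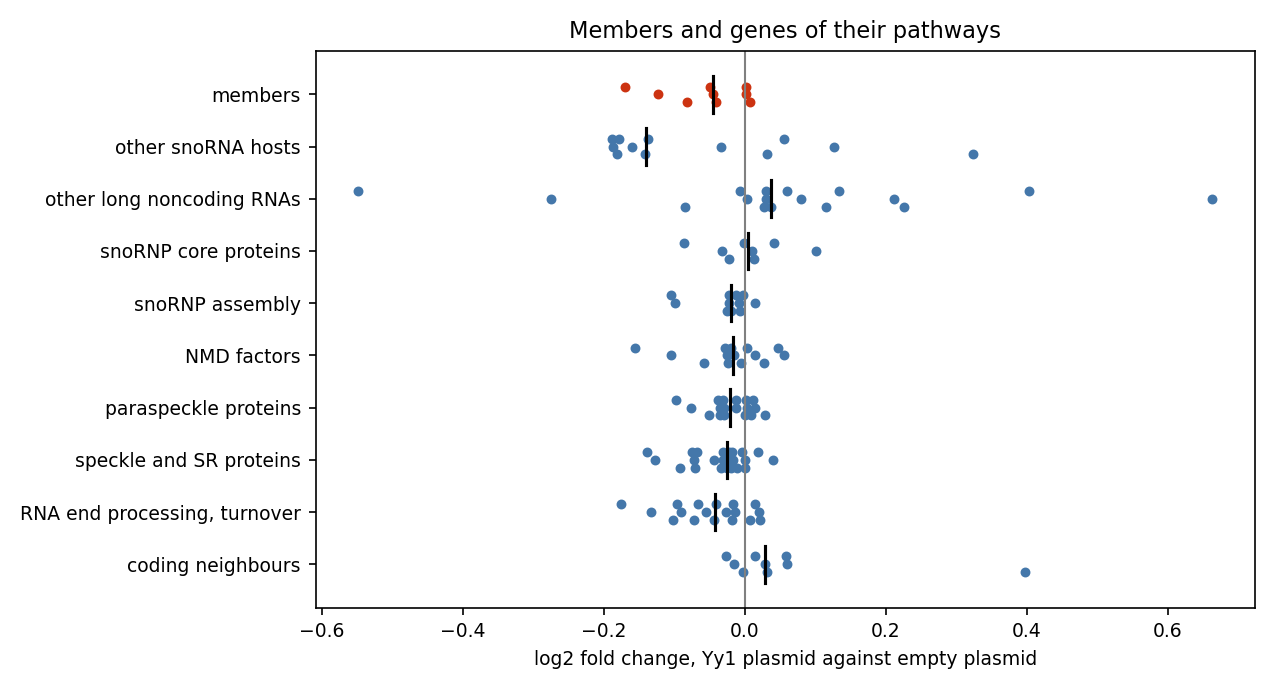
Each point is the log2FC of a tested gene, Yy1 plasmid against empty plasmid, by list, and black bars are list medians. The 9 tested members (red) lie between -0.17 and 0.01, and the widest values belong to long noncoding RNAs outside the members, from -0.55 for H19 to 0.66 for Trp53cor1. Both of these had a lower CPM than any tested member.

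The genes most like each member over the 8 libraries were sought by Pearson r of log2 CPM among about 8165 well-expressed genes with a symbol, a search wide enough that high values occur for any gene. The closest was Schip1 for Malat1 (r = 0.98, rho = 0.98). For Neat1 it was Rps20, a protein of the small ribosomal subunit (r = 0.97, rho = 1). Gas5 was most like Zc3h11a, an mRNA export factor (r = 0.97, rho = 0.95), and Snhg1 most like Sec62, of the secretory translocon (r = 0.98, rho = 0.98). Snhg8 was closest to Arl1 (r = 0.96, rho = 0.95) and next to Rps14, also a ribosomal protein (r = 0.95, rho = 0.93). The others were Srek1ip1 for Pvt1 (r = 0.97), Ctso for Snhg11 (r = 0.93), Mybl2 for Snhg12 (r = 0.97) and Mnt for Epb41l4aos (r = 0.95). Next closest were Serpinb6a for Malat1 (r = 0.95), Chchd2 for Neat1 (0.95), Ckap4 for Gas5 (0.97) and Xpo1 for Pvt1 (0.95). For Snhg1 it was Hnrnph2 (r = 0.98), for Snhg11 Eef1e1 (0.91), for Snhg12 Uck2 (0.95) and for Epb41l4aos Sri (0.93).

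Signs of RNA quality overlapped between the groups. The summed level of the 13 coding genes of mitochondrial DNA ran from 74129 to 82930 CPM with the empty plasmid and from 75809 to 80350 CPM with the Yy1 plasmid. Of 9 listed structural RNAs, 4 were matched by symbol, 3 were tested and 0 called, and all 3 had positive log2FCs. Rmrp, the RNA of RNase MRP, stood at 0.253 ± 0.164 and 0.611 ± 0.342 CPM (means ± SD of 4 libraries; log2FC 1.34 with an SE of 0.465; edgeR adjusted p = 0.547). Its lowest library, at 0.113 CPM, was near the level of 3 counts. Fewer cells with a transcript and less transcript per cell cannot be told apart in these bulk samples.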

How the data were processed

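Poly(A) RNA of 8 samples was measured by strand-specific sequencing, per the labels' protocols. Per the submitters' processing notes, the tools were fastp and kallisto (no versions) and the build was GRCm39. The authors deposited estimated counts per Ensembl gene, not scaled for depth, which were rounded to whole numbers here. How transcripts were summed to genes is not given in the sources used here. Columns were tied to samples through the sample descriptions, and 0 columns were left unused. Symbols came from GENCODE mouse release 21 (48278 of 75078 IDs), an annotation of an older build, which also gave transcript lengths, snoRNAs and neighbours.

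The whole table was tested with edgeR 4.0.16 under R 4.3.3, by its robust quasi-likelihood fit (glmQLFit, glmQLFTest). Genes first had to pass filterByExpr with a minimum count of 10 and a minimum total of 15, and TMM gave the scaling. Tests were two-sided, and p-values were adjusted by Benjamini-Hochberg, with calls under 0.05. A standard error is the log2 fold change divided by the square root of F, and 95% intervals use its t quantile. Correlations and within-group SDs use log2 CPM with a prior count of 2. The steps were tested on simulated data. Within each group, every pair of libraries differed beyond counting error (chi-square per degree of freedom from 2.92 to 13.9). Each library was entered as 1 replicate. Such differences can also be technical, so they do not show that the libraries came from separate cultures. Limits from a count of 0 cover counting error only.

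The members and lists were chosen with earlier results of these data known. Named genes were all members, Yy1, Gcg, the coding neighbours, up to 3 genes with the smallest p in each list or its extremes of level, and the genes most like each member; hosts named for their likeness to Gas5, the cell type markers other than Gcg, and list members named at the ends of a range lie outside it or were chosen after their values were seen. A coding neighbour is not reported here. Alternatives were DESeq2 1.42.0, limma-voom (limma 3.58.1), RLE scaling or none, 2 further filters, 1 surrogate variable (sva 3.50.0), thinning to the smallest library and leaving out each library.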

Additional observations from a re-analysis of the deposited data

How the results depend on the processing

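Under 16 alternatives 0 members were called, and adjusted p values of the 9 tested members ran from 0.402 to 1.00. Gas5, Pvt1 and Snhg1 kept a negative log2 fold change throughout. With all libraries kept, only Epb41l4aos turned sign, to -0.0012 with library size alone, -0.011 with limma-voom and -0.0047 with 1 surrogate variable; the cause was not tested. With single libraries left out, log2 fold changes ran from -0.064 to 0.10 for Malat1, -0.12 to 0.025 for Neat1, -0.25 to -0.10 for Gas5, -0.17 to -0.08 for Pvt1, -0.13 to -0.03 for Snhg1, -0.13 to 0.042 for Snhg8, -0.038 to 0.040 for Snhg11, -0.12 to 0.0013 for Snhg12 and -0.072 to 0.079 for Epb41l4aos. Of all genes, 79 were called higher and 3 lower. With no filter on low counts these were 151 and 23, and 52 were higher with a filter of 1 CPM. The number lower was 5 with DESeq2, 8 with 1 surrogate variable and 1 when thinned. Leaving out single libraries gave from 60 to 83 higher and from 2 to 7 lower. Without Malat1 the members summed to 591 and 565 CPM. Miat was tested only with no filter (log2 fold change 0.76, adjusted p = 0.762). No paired analysis was run because the labels state no pairing of samples between the groups.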
